A study of Mus musculus with 8 samples.

Results

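The cytosolic ribosomal protein genes were examined in the basilar membrane of the mouse cochlea, which bears the sensory hair cells with the supporting cells around them, at postnatal day 6. Members were all protein-coding rows of the deposited table whose gene name is Rpl or Rps followed by a number, with an optional a, x, l or l1, together with Rplp0 to Rplp2 and Rpsa. This gave 83 of 78317 genes, 51 named for the large and 32 for the small subunit. Of these, 76 are called core members here, and 7 are paralogs that resemble a core member: Rpl3l, Rpl7l1, Rpl10l, Rpl22l1, Rpl39l, Rps4l and Rps27l. Messenger RNA was sequenced from 4 libraries titled homo, whose genotype tag reads Dnajc17 cKO (a conditional knockout of the J-domain protein gene Dnajc17), and from 4 libraries titled hete, whose genotype tag reads WT. The titles and tags thus differ on whether the comparison animals carry a mutant allele, so the groups are called homo and hete. The sources used here do not give the Cre driver, the deleted stretch of Dnajc17, the strain or the sex. Nothing in the labels says that each library came from a separate animal or pool, so the spread behind each p-value is that between these libraries and may be technical.

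Each cytosolic ribosome is built from a large and a small subunit, and nearly every ribosomal protein is present in a single copy per ribosome, so balanced supply of the proteins matters for assembly. The messages of these genes are short, abundant and carry a pyrimidine tract at their 5′ end (the TOP motif), through which mTOR signalling and LARP1 control their translation as a group. The large subunit carries a stalk made of Rplp0, Rplp1 and Rplp2, which recruits translation factors. A few ribosomal proteins have paralogs with narrower expression, among them Rpl3l in striated muscle and Rpl10l and Rpl39l in male germ cells. Mouse ribosomal protein genes also have many processed pseudogenes, some nearly identical in sequence to the parent message.

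The promoters of 10 members are shown because they hold the starts of these genes and let Rpl22l1, Rps27l and Rpl39l be set beside their partners. Each line runs from 70 bases before the RefSeq transcription start to 20 bases from it onwards, 5′ to 3′ on the gene's strand, in the RefSeq table on GRCm38.p6, with the first start the table lists. Capitals mark CCGGAAG or its reverse complement CTTCCGG, and runs of a C followed by at least 7 C or T within 50 bases of the start on the gene's strand.
Rpl22l1 (chr3:28805438-28805527, plus strand): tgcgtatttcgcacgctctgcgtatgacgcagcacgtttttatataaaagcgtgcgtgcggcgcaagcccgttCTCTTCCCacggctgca
Rpl22 (chr4:152325656-152325745, plus strand): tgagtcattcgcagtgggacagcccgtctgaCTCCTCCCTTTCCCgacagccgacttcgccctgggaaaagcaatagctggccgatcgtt
Rps27l (chr9:66946016-66946105, plus strand): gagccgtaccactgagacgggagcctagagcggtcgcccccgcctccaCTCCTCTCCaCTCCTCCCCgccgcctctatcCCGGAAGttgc
Rps27 (chr3:90213629-90213718, minus strand): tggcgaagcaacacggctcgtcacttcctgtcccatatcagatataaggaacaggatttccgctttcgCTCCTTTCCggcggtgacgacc
Rpl39l (chr16:10170158-10170247, plus strand): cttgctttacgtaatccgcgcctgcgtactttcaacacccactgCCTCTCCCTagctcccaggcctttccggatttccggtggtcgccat
Rpl39 (chrX:37085203-37085292, minus strand): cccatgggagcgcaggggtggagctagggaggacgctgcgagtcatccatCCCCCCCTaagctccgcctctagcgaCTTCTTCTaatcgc
Rpl5 (chr5:107900458-107900547, plus strand): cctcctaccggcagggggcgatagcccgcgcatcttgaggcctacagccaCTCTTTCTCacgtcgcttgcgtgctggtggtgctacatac
Rpl12 (chr2:32961642-32961731, plus strand): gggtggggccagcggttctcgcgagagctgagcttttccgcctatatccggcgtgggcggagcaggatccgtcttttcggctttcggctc
Rplp2 (chr7:141447581-141447670, plus strand): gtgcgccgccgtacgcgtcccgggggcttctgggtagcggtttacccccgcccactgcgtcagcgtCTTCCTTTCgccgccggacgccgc
Rps10 (chr17:27635225-27635314, minus strand): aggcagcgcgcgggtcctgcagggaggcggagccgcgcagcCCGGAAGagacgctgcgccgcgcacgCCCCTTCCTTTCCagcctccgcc
The window printed for Rpl12 holds neither kind of match. The RefSeq promoter table held 62 of the 83 members. A pyrimidine run of this kind lay within 50 bases of the start in 52 of the 62 members (83.9%), against 8645 of all 27025 genes in the table (32.0%). Runs on either side of the start were counted. A run before the start, as printed for Rpl22, is not part of a message that begins there. The share is thus not a count of TOP motifs. CCGGAAG on either strand was found in the 300-base window, from 250 before to 50 after the start, of 25 members (40.3%), against 9.93% of all genes. The letters TATAAA were present in the 50 bases before the start in 1 of the 62 members (1.61%), the paralog Rpl22l1, whose window above reads tatataaaag, against 3.15% of all genes. A gene with several listed starts counted where any of them matched, and a match in these letters describes the sequence and shows no bound factor.

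All values are TPM, transcripts per 1000000, which the authors deposited. The table keeps no read numbers, so depth per library is unknown. Dnajc17 itself stood at 29.3, 27.7, 31.1 and 18.0 TPM in homo libraries, against 26.5, 25.5, 25.1 and 22.1 TPM in hete libraries, a log2 fold change of 0.07 (SE 0.15, limma adjusted p = 0.969). The value per gene covers the whole gene and the whole tissue, so it does not check the labels. Defining markers of the tissue were present: the supporting cell gene Tectb lay between 3847 and 4879 TPM and the hair cell gene Ocm between 57.5 and 278 TPM, while the early hair cell gene Atoh1 was at or under 1.08 TPM. Homo replicate 1 and hete replicate 4 stood apart from the other libraries in ribosomal protein levels, so the main counts below, and the fold changes of named members that these libraries move most, are also given without them.

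Ribosomal protein messages made up 9.31, 11.3, 10.8 and 10.7% of the TPM in homo libraries, against 11.8, 10.8, 10.5 and 9.36% in hete libraries. The means were 10.5% ± 0.845 in homo and 10.6% ± 1.01 in hete libraries (SD, n = 4 each), and the groups overlapped over nearly their whole ranges. Without homo replicate 1 and hete replicate 4, homo minus hete came to -0.11 percentage points. In bulk tissue, fewer cells of a type and less RNA per cell cannot be told apart. Near-identical copies of the members, mostly processed pseudogenes, added 1.67 to 2.24% in each library. With copies, other ribosomal protein genes outside the name rule and further gene models annotated to the cytosolic ribosome, the total was 12.3 to 15.7% of all TPM.

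The core members did not have equal levels. Their median was 1248 TPM (mean of the 8 libraries per gene), and the 10th and 90th percentiles were 501 and 2540 TPM, a 5.07-fold span. Between 500 and 3000 TPM lay 63 of the 76. At the top were Rpl13a, a large-subunit protein also known from translational silencing in human monocytes, with 4333 TPM, and the stalk protein gene Rplp1 with 3845 TPM. Rpl23a, a protein near the exit of the nascent chain, had 3296 TPM, and the small-subunit genes Rps27 and Rps24 had 3179 and 3142 TPM.

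Lowest of the core were Rpl12, which sits at the base of the stalk, with 46.5 TPM, Rps12 with 65.9 TPM, and Rpl5, which carries the 5S ribosomal RNA and takes part in the control of Mdm2 and p53, with 81.6 TPM. The next in order, Rpl27a and Rps16, had 274 and 416 TPM. Rpl12, Rps12 and Rpl5 were thus the core members under 100 TPM, although their proteins belong to every ribosome. The deposited table also holds 7 long noncoding gene models of at least 100 TPM whose deposited annotation names them structural constituents of the cytosolic ribosome. The most abundant, ENSMUSG00000128633, annotated to the small subunit, had 2165 TPM. ENSMUSG00000121784 and ENSMUSG00000121777, both annotated to the large subunit, had 1448 and 1292 TPM. The table gives these models no ribosomal protein symbol, so none was assigned to a member, and the low values of the 3 genes describe the named rows of the table and not the whole output of the gene.

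**Figure D1:**
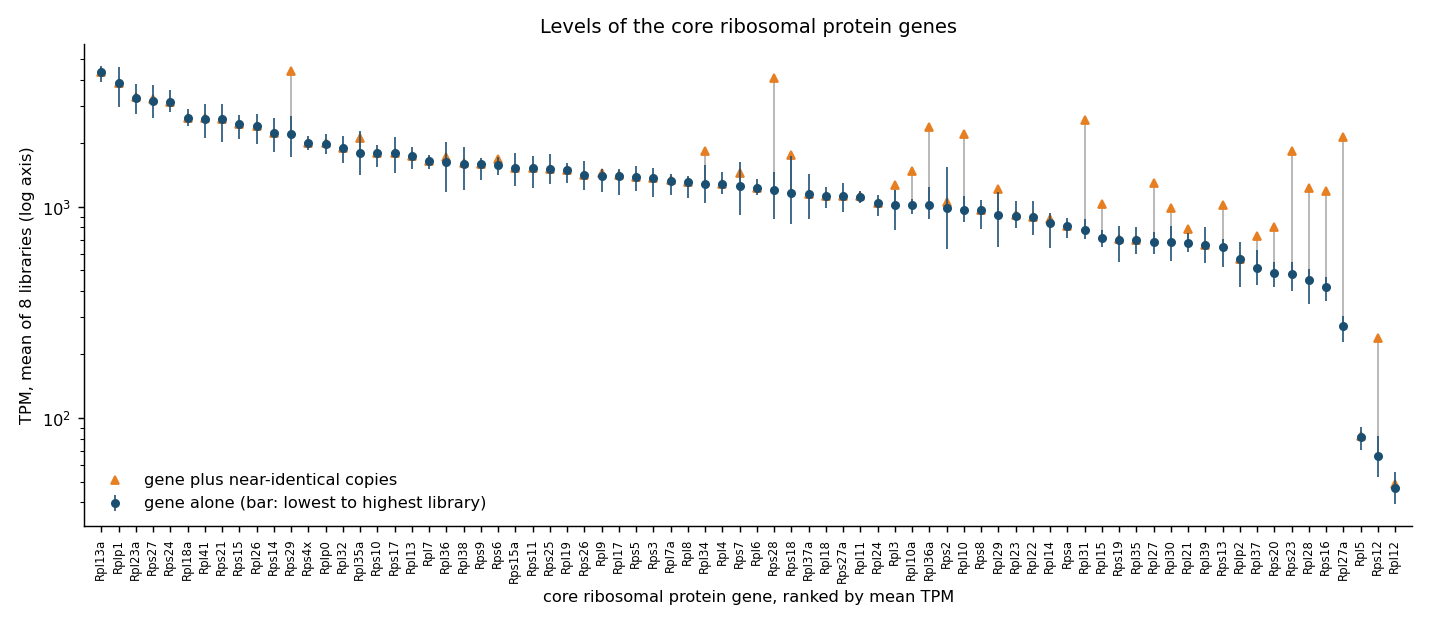
Mean TPM over the 8 libraries on a log axis for the 76 core members, ranked from Rpl13a (4333 TPM) to Rpl12 (46.5 TPM). Circles show the gene alone with bars from the lowest to the highest library, and triangles the gene with its near-identical copies, which lift Rpl27a most plainly, to 2136 TPM.

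How much of a member's signal is listed under the member and how much under a copy differed widely between genes. Searching GENCODE M21 transcripts gave 348 copies of 69 members with any TPM, at a minimum of 95% identity over at least 80% of the copy's length. Of these, 295 are processed pseudogenes, 47 transcribed processed pseudogenes and 5 protein-coding models. Copies identical over their whole length numbered 18, and 43 copies averaged at least 20 TPM. In 9 members the copies held more TPM than the gene. Rpl27a held 274 TPM, while its copies held 85.3 to 87.5% of the sum in homo libraries and 86.7 to 87.6% in hete libraries, most of it in Gm7536, a processed pseudogene on chromosome 3 with 1861 TPM. Rps28 held 64.8 to 76.2% of its sum in copies in homo libraries and 67.3 to 73.5% in hete libraries, most of it in Gm10443 on chromosome 6 with 2860 TPM. Gm7536 and Gm10443 had no substitution against the aligned coding sequence of the parent (bases 1 to 444 of 447 for Rpl27a, all 210 for Rps28). With copies added, the median of the core was 1445 TPM, and the span from the 10th to the 90th percentile narrowed to 3.47-fold (756 to 2627 TPM).

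A second set of members had copies whose share differed between libraries by large steps. In 11 members the share of the copies ranged over more than 20 percentage points across the 8 libraries, and 13 copies were listed at 0 in at least 1 library and held at least 100 TPM in another. The parents Rps18, Rpl30 and Rpl34 are shown with their main copy, because the letters that tell parent and copy apart are few. Each line is a stretch of 60 bases of the coding sequence from GENCODE M21, counted from 1 at the A of the start codon, with capitals where parent and copy differ.
Rps18 (chromosome 17, coding bases 324 to 383): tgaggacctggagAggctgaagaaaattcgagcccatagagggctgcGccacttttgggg
Rps18-ps6 (chromosome 13): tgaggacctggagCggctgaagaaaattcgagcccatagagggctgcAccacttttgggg
Rpl30 (chromosome 15, coding bases 66 to 125): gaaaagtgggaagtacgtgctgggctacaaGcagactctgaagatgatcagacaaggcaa
Gm12191 (chromosome 11): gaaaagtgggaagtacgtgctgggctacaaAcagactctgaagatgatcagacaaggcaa
Rpl34 (chromosome 3, coding bases 102 to 161): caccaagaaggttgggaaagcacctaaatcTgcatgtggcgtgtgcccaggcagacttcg
Rpl34-ps1 (chromosome 6): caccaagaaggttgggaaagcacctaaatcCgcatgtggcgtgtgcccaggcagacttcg
Rps18-ps6, a model annotated as protein-coding, differs from the 459 coding bases of Rps18 at 4 positions, T186C, A337C, G371A and G431A, with the parent's base first. Gm12191 differs from the 348 coding bases of Rpl30 by G96A alone, and Rpl34-ps1 from the 354 of Rpl34 by T132C and C318G.

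Rps18 encodes a protein of the small subunit's head. Its copies held 25.3, 45.9, 27.1 and 25.4% of the sum of gene and copies in homo libraries, against 47.1, 0.268, 46.7 and 48.3% in hete libraries. The values sat at 3 levels, near 0 in hete replicate 2, near 25% in homo replicates 1, 3 and 4, and near 47% in the other 4 libraries. Rps18 itself was highest where that share was lowest, with 1100, 1056, 1331 and 1304 TPM in homo libraries, against 1061, 1735, 942 and 832 TPM in hete libraries. The sum of gene and copies was more even, 1470 to 1950 TPM in homo libraries and 1610 to 2010 TPM in hete libraries.

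Rpl30, whose protein also binds its own message in yeast, had 43.9, 29.0, 27.8 and 31.3% in copies in homo libraries, against 28.1, 48.1, 0.241 and 29.0% in hete libraries. Gm12191 was listed at 0 in hete replicate 3 and held 594 TPM in hete replicate 2. Unlike for Rps18, the sum of Rpl30 and its copies was no more even than the gene over all libraries: it was 919 to 1050 TPM in homo and 744 to 1230 TPM in hete libraries, while Rpl30 alone had 556 to 743 TPM in homo and 599 to 811 TPM in hete libraries. Rpl3, a protein at the peptidyl transferase centre, had 0.0322, 20.1, 19.9 and 22.5% in copies in homo libraries, against 21.3, 41.4, 0 and 23.3% in hete libraries. Its copy Rpl3-ps1 was listed at 0 in homo replicate 1 and hete replicate 3, the libraries with the highest Rpl3 values, 1209 and 1204 TPM.

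Rpl29 had 43.4, 41.3, 19.6 and 21% in copies in homo libraries, against 21.6, 0.620, 0.249 and 42.7% in hete libraries, split between Gm8210 on chromosome 1 and Gm13841 on chromosome 5. Rpl34 had 0.115, 25, 28.3 and 40.8% in homo libraries, against 23.9, 23.5, 41.6 and 41.7% in hete libraries. Over all libraries its sum with copies ranged more widely than the gene, from 1050 to 2280 TPM in homo and 1710 to 2090 TPM in hete libraries, while Rpl34 alone had 1049 to 1481 TPM in homo and 1093 to 1587 TPM in hete libraries. Rps7 had 25.1, 22.2, 0.0941 and 20.6% in homo libraries, against 0.0792, 20.3, 0.187 and 18.7% in hete libraries. Rps7 itself was highest in the 3 libraries where its copy Rps7-ps3 was listed at 0, with 1604 TPM in homo replicate 3 and 1641 and 1433 TPM in hete replicates 1 and 3. In each of these genes the shares of the homo and hete libraries overlapped. The set of libraries with a share near 0 differed from gene to gene, though hete replicate 3 recurred in Rpl30, Rpl3, Rpl29 and Rps7.

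**Figure D2:**
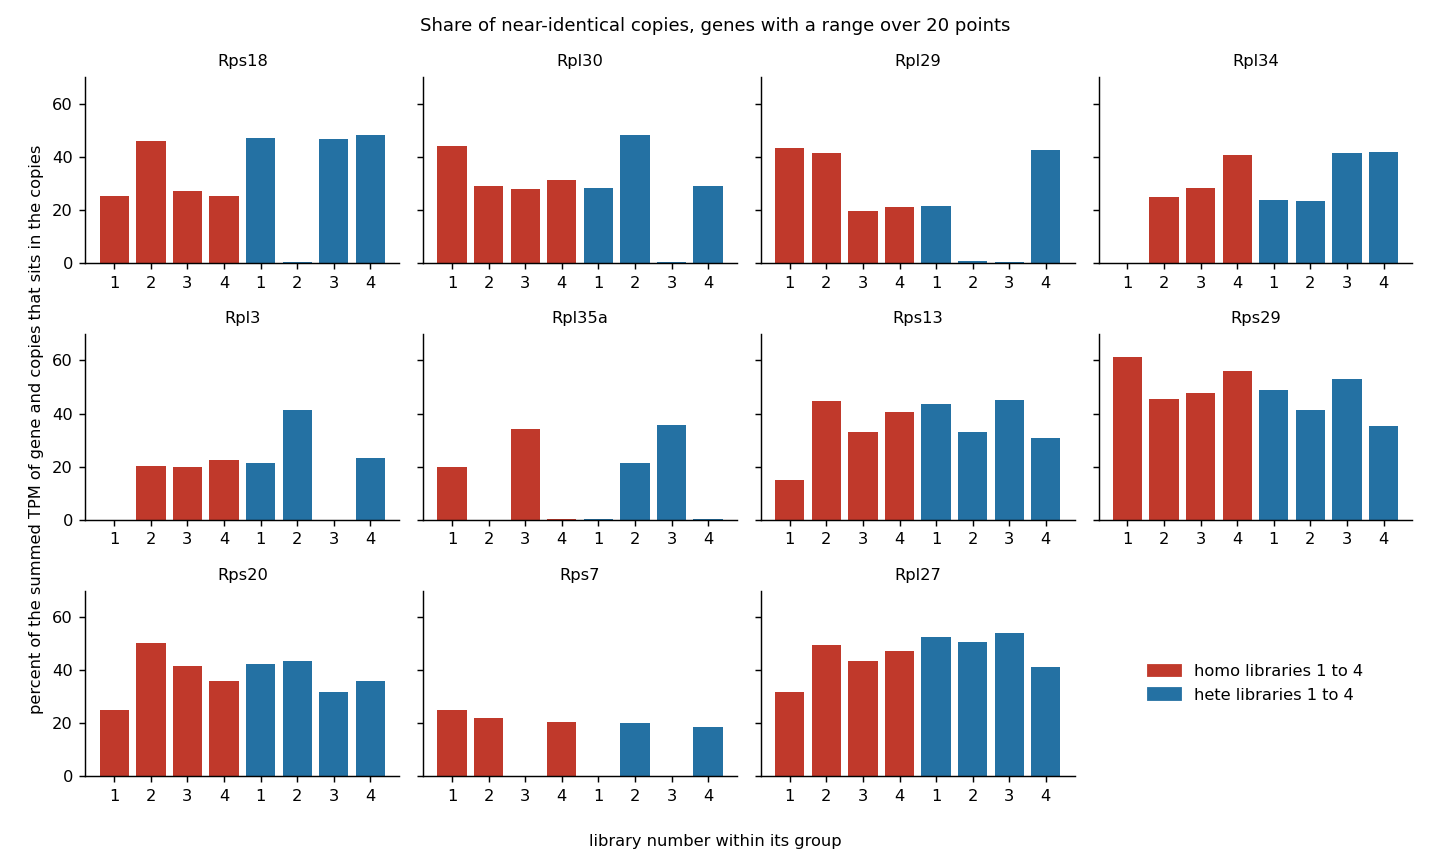
Percent of the summed TPM of a gene and its near-identical copies that is listed under the copies, per library, for the 11 members with a range over 20 points. Bars for Rps18, Rpl30, Rpl29, Rpl34, Rpl3, Rpl35a and Rps7 fall to near 0 in at least 1 library, while Rps29, Rps20, Rps13 and Rpl27 stay at 15.0% or more in all 8.

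The copies found for Rps2 held at most 11.8% of the sum of gene and copies in any library. As listed, Rps2, a small-subunit protein at the entry of the messenger RNA, varied more than any other core member relative to the rest. It had 974, 835, 1134 and 1164 TPM in homo libraries, against 821, 1546, 808 and 629 TPM in hete libraries, and like Rps18 it lies on chromosome 17 and was highest in hete replicate 2. The long noncoding model ENSMUSG00000121779, annotated to the small subunit and chosen after its values were seen, had 346, 791, 399 and 380 TPM in homo libraries, against 745, 5.04, 736 and 600 TPM in hete libraries. It was lowest where Rps2 and Rps18 were highest. This model was not among the copies found, so the sums of Rps2 and Rps18 with copies leave it out. Whether its signal belongs with either gene was not tested. A second such model, ENSMUSG00000121769, also chosen after its values were seen, was listed at 0 in homo replicate 3 and in hete replicates 1 and 3, and held 118 to 554 TPM in the other libraries.

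The 7 paralogs fell into 3 levels. Rpl22l1, the paralog of Rpl22, was the most abundant, with 357, 507, 465 and 565 TPM in homo libraries, against 590, 508, 522 and 421 TPM in hete libraries. It held 35.2% ± 2.44 of the pair in homo and 35.6% ± 0.779 in hete libraries (SD, n = 4 each). Rpl22 had 863 TPM ± 84.1 in homo and 921 TPM ± 110 in hete libraries (SD, n = 4 each). The log2 fold change of Rpl22l1 was -0.12 (SE 0.15, limma adjusted p = 0.938), and came to 0.01 without homo replicate 1 and to -0.21 without hete replicate 4.

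Rps27l, a paralog of Rps27 that p53 induces in human cells, had 218, 298, 264 and 294 TPM in homo libraries, against 346, 294, 305 and 288 TPM in hete libraries. Its share of the pair with Rps27 was 7.62 to 8.16% in homo and 8.26 to 9.68% in hete libraries, and those ranges did not overlap. It was the only pair of the 7 of which that was true, and no such rate was computed over other gene pairs. No test was run on the share, and the level of Rps27l was not called (log2 fold change -0.21, SE 0.10, limma adjusted p = 0.870). It was -0.11 without homo replicate 1 and -0.14 without homo replicate 1 and hete replicate 4. Both Rps27l and Rps27 carry pyrimidine runs in the windows printed above, and Rps27l but not Rps27 holds CCGGAAG there.

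Rpl7l1, known in assembly of the large subunit, had 77.6, 62.5, 59.2 and 52.0 TPM in homo libraries, against 58.8, 60.2, 56.2 and 72.9 TPM in hete libraries. That was 3.71% ± 0.730 of its pair with Rpl7 in homo and 3.63% ± 0.451 in hete libraries (SD, n = 4 each). Its highest values fell in homo replicate 1 and hete replicate 4, the libraries in which the core members were lowest. Rps4l, a paralog of Rps4x, had 53.6, 52.5, 38.7 and 46.9 TPM in homo libraries, against 39.7, 40.9, 37.4 and 32.5 TPM in hete libraries. It held 2.33% ± 0.425 of its pair in homo and 1.83% ± 0.119 in hete libraries (SD, n = 4 each). Homo replicate 3 lay within the hete range, and the other 3 homo libraries lay above it.

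The muscle and germ cell paralogs were at or near 0. Rpl3l was listed at 0.24 TPM in homo replicate 3, at 0.11 TPM in hete replicate 2 and at 0 in the other 6 libraries. Rpl10l was listed at 0 in all 8. Rpl39l had 0.68, 1.92, 0.70 and 0 TPM in homo libraries, against 0.34, 0.32, 0.37 and 0.37 TPM in hete libraries, at most 0.268% of its pair with Rpl39. Muscle markers were low as well: 2 of 8 passed the filter of a mean of at least 1 TPM, with a summed level of the list of 7.43 to 12.1 TPM in homo and 5.82 to 9.80 TPM in hete libraries. None of the 5 male germ cell markers passed it; Prm2 and Tnp1 were at 0 in all libraries.

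None of the 3 stalk genes was called between homo and hete libraries, and their levels were far apart. Rplp0, the stalk's scaffold, had 1917, 2140, 2217 and 1881 TPM in homo libraries, against 2008, 2060, 1899 and 1791 TPM in hete libraries (log2 fold change 0.07, SE 0.08, limma adjusted p = 0.929). Rplp1 had 2973, 4104, 3799 and 4014 TPM in homo libraries, against 4587, 3879, 3906 and 3498 TPM in hete libraries (-0.10, SE 0.12, adjusted p = 0.936). Its binding partner Rplp2 had 417, 603, 523 and 660 TPM in homo libraries, against 684, 554, 611 and 475 TPM in hete libraries (-0.08, SE 0.15, adjusted p = 0.959). Rplp1 and Rplp2 act as a dimer in the stalk, yet the level of Rplp2 averaged 566 TPM, while that of Rplp1 averaged 3845 TPM. No copies of Rplp2 were found. The long noncoding models described above were assigned to no member, so both levels describe the named rows. Without homo replicate 1 the log2 fold changes of Rplp1 and Rplp2 were 0.0079 and 0.04, and without hete replicate 4 those of Rplp0, Rplp1 and Rplp2 were 0.03, -0.155 and -0.18.

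Relative to each other, the core members varied less across libraries than they did as deposited. The level of a core member relative to the core, its log2(TPM + 1) minus the mean over the 76 genes in the same library, had a median SD over the 8 libraries of 0.084, against 0.15 for the level as deposited. The median SD as deposited was 0.12 over 481 nuclear protein-coding genes outside the family with at least 200 TPM. It was 0.17 over all tested genes outside the family. From these genes no shared shift was subtracted, so their values compare with the 0.15 of the core and not with 0.084. As deposited, the core thus varied more than the genes of at least 200 TPM. The steadiest was Rps10, with relative levels of 0.70, 0.75, 0.73 and 0.75 in homo libraries, against 0.70, 0.69, 0.71 and 0.69 in hete libraries (SD 0.026 over all 8). Rpl24, a protein of the bridge between subunits, and Rpl18 followed with SDs of 0.029 and 0.033. At the other end stood Rps2 with 0.38, Rps18 with 0.30 and Rpl29 with 0.27. Summing each gene with the copies found brought Rps18 to 0.050 and Rpl29 to 0.078, and left Rps2 at 0.33. These sums leave out the long noncoding models. Other genes were less even when summed: Rpl34 had an SD of 0.29 with copies and 0.10 alone, Rps12 0.24 and 0.15, Rps29 0.23 and 0.11, and Rpl30 0.21 and 0.096. In all, 7 core members had an SD above 0.2 alone and 6 with copies summed, and of these Rps2 and Rps15a were above it both ways.

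The level of the whole family moved together between libraries, within both groups. The mean over the core, as the log2 deviation of each gene from its own 8-library mean, was -0.16, 0.09, 0.04 and 0.03 in homo libraries, against 0.16, 0.04, -0.0042 and -0.19 in hete libraries. Below their own mean were 64, 7, 26 and 20 of the 76 core genes in homo libraries, against 6, 20, 45 and 74 in hete libraries. Homo replicate 1 and hete replicate 4 were thus the low libraries and hete replicate 1 the high one. Among all tested genes the shares below their own mean were 38.1, 53.5, 44.0 and 55.9% in homo libraries, against 67.8, 54.5, 45.3 and 44.3% in hete libraries, so the low libraries of the family were not low across genes. Large-subunit and small-subunit genes shifted alike: homo replicate 1 stood at -0.16 and -0.17, and hete replicate 4 at -0.18 and -0.21. Mitochondrial ribosomal protein genes, a family of 78 that builds the ribosome inside mitochondria, deviated less, by -0.03 in homo replicate 1 and -0.09 in hete replicate 4.

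**Figure D3:**
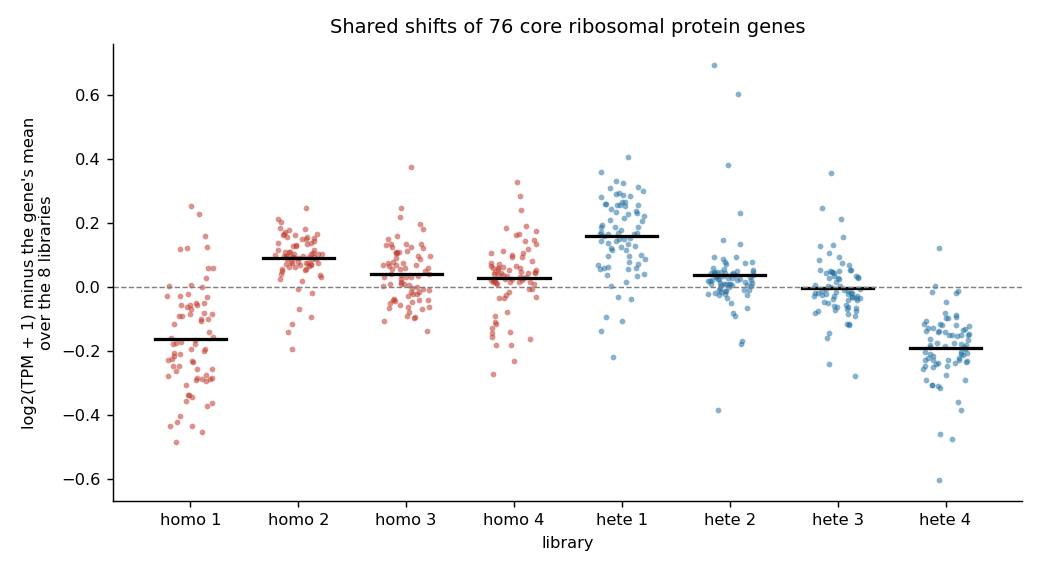
Each point is 1 of the 76 core members, as log2(TPM + 1) minus its mean over the 8 libraries, and each bar is the mean of a library. Homo replicate 1 (-0.16) and hete replicate 4 (-0.19) lie low and hete replicate 1 (0.16) lies high, while the remaining 5 lie between -0.0042 and 0.09.

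Beside the shared shift, the core members differed by transcript length in several libraries. The correlations use the level relative to the core, which leaves out the mean shift of each library. Over the 76 core genes, Spearman's rho between annotated transcript length and the level relative to the core was 0.66, -0.40, 0.46 and -0.51 in homo libraries, against -0.54, -0.18, -0.04 and 0.09 in hete libraries. These are descriptions across genes of 1 library, which share that library's preparation, and carry no p. The 28 core genes of up to 600 bases had a median deviation of -0.28 in homo replicate 1, against -0.06 for the 17 genes over 1000 bases. In hete replicate 1 the same medians were 0.26 and 0.15. Hete replicate 4 showed no such gradient, with -0.18 for the short and -0.15 for the long genes. The 150 nuclear protein-coding genes outside the family of up to 600 bases and at least 20 TPM had median deviations of -0.19, 0.02, -0.10 and 0.11 in homo libraries, against 0.19, 0.04, 0.0081 and -0.02 in hete libraries. Nuclear genes of oxidative phosphorylation, whose messages are also short, had mean deviations of -0.21, -0.01, -0.12 and 0.08 in homo libraries, against 0.16, 0.05, 0.02 and 0.03 in hete libraries. The low value of homo replicate 1 and the high value of hete replicate 1 thus appeared in short genes of other kinds, and the low value of hete replicate 4 did not. In hete replicate 4, translation factors with TOP messages, ribosome assembly factors and ribosomal protein genes outside the name rule averaged -0.146, -0.119 and -0.209. Each was the lowest of the 8 libraries. Their means in homo replicate 1 were 0.018, 0.024 and -0.059. Regulators of ribosomal protein translation averaged 0.111 in hete replicate 4. In hete replicate 4 the hair cell list averaged 0.32 above its mean over libraries, but its members did not move alike. Ocm, Slc26a5, Tmc1, Espn and Pou4f3 were at their highest there, while Myo7a (14.1 TPM) and Atoh1 (0.36 TPM) were at their lowest. The cell cycle list averaged 0.28 below its mean and the erythroid list 0.53 below. Mitochondrially encoded transcripts held 10.4% of TPM, the highest of the 8 libraries. The part of these values in the shift was not tested.

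**Figure D4:**
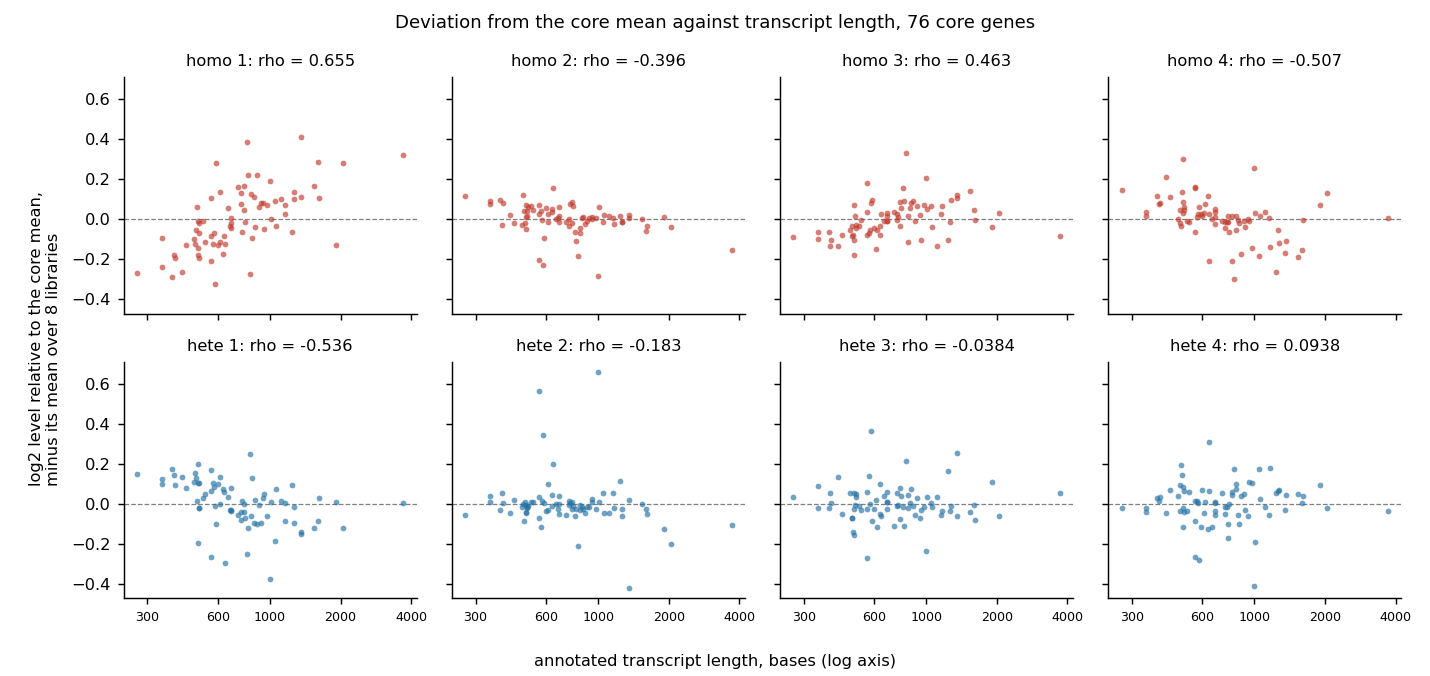
Log2 level of each core member relative to the core mean, minus its mean over libraries, against annotated transcript length in bases on a log axis, with homo libraries above and hete libraries below. The points slope upward in homo replicates 1 and 3 (rho 0.66 and 0.46), downward in homo replicates 2 and 4 and hete replicate 1, and show little slope in hete replicates 3 and 4 (-0.04 and 0.09).

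The comparison of homo with hete libraries asks whether the family differs in the knockout tissue. Of the 83 members 80 had a mean of at least 1 TPM and were tested; Rpl3l, Rpl10l and Rpl39l were not. At an adjusted p under 0.05 (limma-trend on log2(TPM + 1) over 17811 genes, Benjamini-Hochberg), 0 members were called, against 2 genes of all tested (0.0112%), 1 in each direction (0.00561% each). The smallest adjusted p of a member was 0.710. At an unadjusted p under 0.05 stood 2 of the 80 members (2.5%), both higher in homo, against 1078 of all tested genes (6.05%, or 3.56% higher and 2.49% lower in homo). By sign alone, 44 members were higher and 36 lower in homo. The median log2 fold change of the core was 0.0045, against 0.020 over all tested genes, with 24 higher and 22 lower of the 46 large-subunit genes and 18 higher and 12 lower of the 30 small-subunit genes. The core genes ran from -0.21 (Rps7) to 0.20 (Rpl5). Their median absolute log2 fold change was 0.050, against 0.091 over all tested genes. For 72 of the 76 core genes the 95% interval of the fold change lay within ±0.5 on the log2 scale. Without homo replicate 1 and hete replicate 4, 0 members were called and 2 had an unadjusted p under 0.05, both lower in homo.

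Rpl5 had 88.5, 84.1, 85.4 and 91.1 TPM in homo libraries, against 83.6, 72.3, 77.5 and 70.3 TPM in hete libraries. All 4 homo libraries lay above all hete libraries, and Rpl5 was the only member of which that was true in either direction, where 3.99% of all tested genes had groups that did not overlap, 2.58% higher and 1.41% lower in homo. Its log2 fold change was 0.20 (SE 0.067, limma adjusted p = 0.710, unadjusted 0.014). These values describe the row named Rpl5, which is low for the family; the long noncoding model ENSMUSG00000121777, annotated to the large subunit with binding of 5S ribosomal RNA, had 1280, 1329, 1379 and 1241 TPM in homo libraries, against 1345, 1272, 1258 and 1232 TPM in hete libraries, with groups that overlapped. Rps4l had the other unadjusted p under 0.05, with a log2 fold change of 0.33 (SE 0.11, adjusted p = 0.710), which was 0.21 without homo replicate 1 and hete replicate 4.

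The remaining members completed the 6 with the smallest p. Rpl12 had 39.2, 49.6, 44.0 and 39.1 TPM in homo libraries, against 55.3, 51.2, 51.6 and 41.8 TPM in hete libraries (log2 fold change -0.21, SE 0.10, limma adjusted p = 0.861). Of its 4 hete libraries, 3 lay above all homo libraries, and hete replicate 4 lay within the homo range. Rps13 had 699, 641, 707 and 668 TPM in homo libraries, against 670, 662, 604 and 520 TPM in hete libraries (0.15, SE 0.086, adjusted p = 0.870). That value was 0.07 without hete replicate 4, 0.06 without both low libraries and 0.06 with copies summed. Rpl15 had 742, 703, 780 and 735 TPM in homo libraries, against 729, 716, 657 and 643 TPM in hete libraries (0.11, SE 0.066, adjusted p = 0.870), and gave 0.06 with copies summed. The fourth, Rps27l, is given above with its partner. For all 4 genes the groups overlapped, and none was called.

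**Figure D5:**
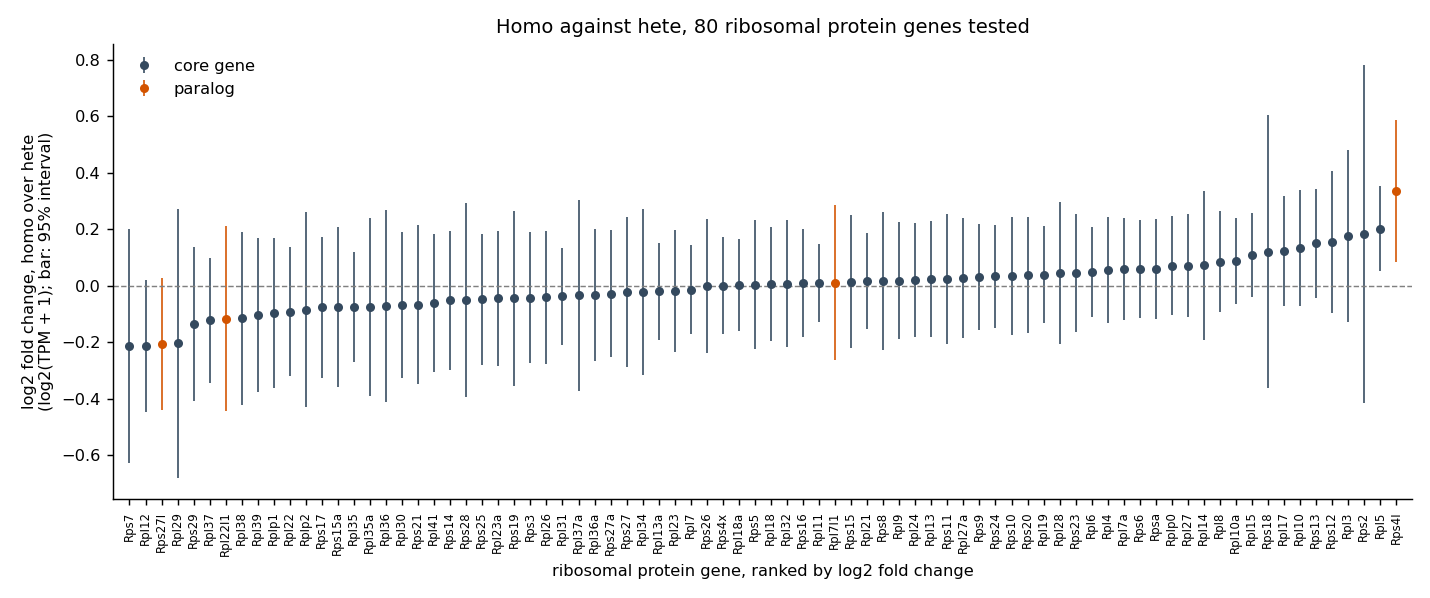
Log2 fold change of homo over hete libraries with 95% intervals for the 80 members tested, ranked from Rps7 (-0.21) to Rps4l (0.33), with core genes and paralogs in different colours. The intervals of Rpl5 and Rps4l alone exclude 0 before adjustment, and the widest intervals belong to Rps2, Rps18 and Rpl29.

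Ribosomal protein genes outside the name rule were read from the same fit, and none of those given here was called. Rps3a1, a small-subunit gene, had 1748 to 2068 TPM in homo and 1846 to 2042 TPM in hete libraries (log2 fold change 0.0077, SE 0.075, limma adjusted p = 0.997). Fau, the fusion gene that encodes Rps30, had 236 to 253 TPM in homo and 176 to 271 TPM in hete libraries (0.16, adjusted p = 0.874). Rpl36al gave -0.04 and the scaffold protein gene Rack1 0.03, with adjusted p of 0.969 and 0.977.

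Of 160 genes tested in 5 lists that make, assemble or regulate ribosomes, or build the mitochondrial one, limma called 0, and 9 higher and 4 lower in homo had an unadjusted p under 0.05, where 3.56% of all tested genes were higher and 2.49% lower at that limit. Of 19 translation factors and other genes with TOP messages, 17 were higher and 2 lower in homo by sign, with a median log2 fold change of 0.095, against 0.020 over all tested genes. This list averaged -0.146 in hete replicate 4 and 0.125 in homo replicate 3. Genes of a list can share such library shifts, so signs within this list and those below are not separate observations. Nap1l1, a histone chaperone with a TOP message, had 232, 235, 245 and 222 TPM in homo libraries, against 198, 204, 203 and 175 TPM in hete libraries (0.27, SE 0.066, limma adjusted p = 0.581), with groups that did not overlap. Eif3e, a subunit of the initiation factor eIF3, gave 0.12 (SE 0.052, adjusted p = 0.822), also without overlap. Both were named for the 2 smallest p of the list, a choice that favours such gaps. Of all tested genes, 2.58% were higher in homo without overlap. Although they share the TOP motif, the core ribosomal protein genes had the smaller median of 0.0045; the difference between the lists was not tested.

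Ribosome assembly factors, which process ribosomal RNA and build the subunits in the nucleolus, had 29 of 37 higher by sign and a median of 0.043. Wdr43, of the small-subunit processome, had 43.1 to 48.7 TPM in homo and 32.0 to 42.6 TPM in hete libraries (log2 fold change 0.28, SE 0.093, limma adjusted p = 0.710). Dkc1, the pseudouridine synthase dyskerin, gave 0.18 (SE 0.073, adjusted p = 0.794). RNA polymerase I, which transcribes ribosomal RNA, and its factors had 10 of 13 higher by sign and a median of 0.092, with 0.21 for Taf1d (adjusted p = 0.818) and 0.20 for the largest subunit gene Polr1a (adjusted p = 0.870). The 13 regulators of ribosomal protein translation had 6 higher and 7 lower and a median of -0.0039. Among them, the S6 kinase gene Rps6kb2 had 28.9 to 37.3 TPM in homo and 22.6 to 28.7 TPM in hete libraries (0.31, SE 0.11, adjusted p = 0.727). Tsc2, an upstream brake on mTOR, gave -0.12 (adjusted p = 0.870). Of 78 mitochondrial ribosomal protein genes, 37 were higher and 41 lower, with a median of -0.0075. Mrps35 had 16.9, 11.8, 20.7 and 20.5 TPM in homo libraries, against 30.1, 20.6, 24.6 and 26.5 TPM in hete libraries (-0.54, SE 0.18, adjusted p = 0.710), and Mrpl15 gave 0.28 (SE 0.096, adjusted p = 0.727). Markers of the cell types also differed by sign between the groups, with no marker called. Higher in homo were 8 of 8 spiral ganglion neuron markers, 8 of 8 cell cycle genes, 5 of 5 glial, 5 of 5 mesenchymal and 7 of 8 supporting cell markers, with median log2 fold changes of 0.13, 0.19, 0.20, 0.091 and 0.092. Lower in homo were 5 of the 7 hair cell markers tested (median -0.10) and 5 of 5 erythroid genes (median -0.21). The median over all tested genes was itself 0.020. Markers of a list can share library shifts: the glial list averaged -0.44 in homo replicate 3, 0.44 in homo replicate 4 and -0.62 in hete replicate 1. The signs within such a list are thus not separate observations. The neuron list summed to 349 to 549 TPM in homo and 304 to 437 TPM in hete libraries, the cell cycle list to 102 to 125 TPM in homo and 86.3 to 105 TPM in hete libraries, and the glial list to 596 to 1240 TPM in homo and 601 to 1060 TPM in hete libraries. The mesenchymal list summed to 503 to 728 TPM in homo and 505 to 578 TPM in hete libraries, and the supporting cell list to 6960 to 7660 TPM in homo and 6290 to 7540 TPM in hete libraries. The hair cell list summed to 131 to 201 TPM in homo and 187 to 373 TPM in hete libraries. Ocm alone had 57.5 to 122 TPM in homo and 101 to 278 TPM in hete libraries (log2 fold change -0.92, SE 0.34, limma adjusted p = 0.76). The sum of the list thus largely follows that gene. The erythroid list summed to 3110 to 4080 TPM in homo and 2470 to 5330 TPM in hete libraries. The part of these cell types in the values of the family was not tested.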

How the data were processed

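Polyadenylated RNA of 8 libraries (4 homo, 4 hete) was measured. The TPM values are those the authors deposited; fastp, HISAT2, StringTie, RSEM, DESeq2 and the build GRCm39 are listed, with neither version nor role, per the submitters' processing notes. Stranded mRNA libraries were made from 1 µg of total RNA each, per the labels' protocols. TPM of every library sum to 1000000. All 8 value columns were mapped and 0 were left unmapped. TPM keep no read number, so no interval or limit that needs depth was computed, and an exact 0 is given as listed.

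Limma 3.58.1 (R 4.3.3) was run on the whole table: log2(TPM + 1), genotype as the only term, eBayes with trend and robust options, a filter at a mean of 1 TPM over libraries, Benjamini-Hochberg over 17811 genes, threshold 0.05. Fold changes are homo over hete on that scale and understate changes of low genes. The steps were tested on simulated data. Members and gene lists were chosen with earlier results of these data known. Genes are named by a fixed rule: Dnajc17, paralogs and partners, stalk genes, the 5 highest and 5 lowest core genes, the 6 smallest p, the 3 largest and 3 smallest SDs relative to the core, ribosomal protein genes outside the name rule (1 is not reported here), and the 2 smallest p of each context list; copies and the other members described with them were chosen after their values were seen. Copies came from blastn 2.17.0 (E-value limit 1e-20) of GENCODE M21 transcripts against members; a copy absent from that annotation was not found. Transcript length is the shortest principal transcript there. M21 is on GRCm38, so no gene coordinates of the deposited table are printed. Reads of near-identical genes cannot be assigned with certainty, and the counting of such reads is not given in the sources used here. Alternatives were other pseudocounts, filters and scalings, a fold threshold, a replicate block and leaving out single libraries. The deposited enrichment and splicing tables were not used here. Plots used matplotlib 3.10.9 and Python 3.11.15.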

Additional observations from a re-analysis of the deposited data

Results flagged for a closer look

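Each member's 4 values per group were examined for a lone extreme by Dixon's ratio at its 95% critical value, 160 groups in all, of which chance flags about 1 in 20; 5 were found. In homo replicate 1, Rpl9 had 1253.17 TPM and Rpl24 908.26 TPM, each far below the other 3 homo libraries. In hete replicate 4, Rps9 had 1348.19 TPM and Rpl7a 1135.01 TPM, each far below the other 3 hete libraries. In hete replicate 1, Rpl36a had 1237.17 TPM, far above the other 3. These are the libraries in which the mean of the core lay low or high.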

How the results depend on the processing

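No member was called under any alternative; the smallest adjusted p of a member (limma) ranged from 0.656 to 1.0, where 1078 of all genes (6.05%) and 2 members had an unadjusted p under 0.05 in the analysis as reported. The number of genes called among all tested, 2 as reported, was 1 without a filter on low values, 1 with a fold threshold of 1.1, 4 with each library centred on the core members, and 1 to 5 when single libraries were left out; the cause was not tested. With the replicate number as a block 1 gene was called. Same-numbered libraries did not deviate together (correlations -0.0837, -0.026, 0.0491 and 0.00785), which does not exclude a shared litter or preparation of small effect. The core's median log2 fold change ranged from -0.0596 to 0.061 and the difference in TPM share from -0.51 to 0.31 percentage points with single libraries left out. Named members near 0 changed sign. Rpl7l1 came to -0.0166 with quantile normalization, -0.0118 with TMM and -0.0151 without homo replicate 1 and hete replicate 4, and ranged from -0.0942 to 0.0954 with single libraries left out. The ranges of the same kind were -0.208 to 0.0123 for Rpl22l1, -0.155 to 0.00792 for Rplp1, -0.179 to 0.0417 for Rplp2 and -0.0123 to 0.341 for Rps18, which came to -0.0288 with copies summed. Summing copies and leaving out both low libraries together were chosen after seeing the data. TPM gives no depth, which limits what can be said of genes listed at 0.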
